A study of Homo sapiens with 12 samples.

Results

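The genes described here are the zinc finger genes of human chromosome 19, measured in A375 melanoma cells after 8 h of drug exposure. Members were chosen by 3 properties: a protein-coding gene on chromosome 19, a symbol made of ZNF and a number, and a mean CPM (the gene's count divided by the library total and multiplied by 10 to the power 6) of at least 0.5 over the 12 libraries. Of 241 such genes, 221 reached that level, out of 58347 genes listed in the count files, and all 221 also passed the filter on low counts that left 16740 genes for testing. The level was therefore used to choose the members, and levels are given below as a description only. The members closest above the cut were ZNF540 at 0.513, ZNF114 at 0.518 and ZNF676 at 0.518 CPM, and the genes closest below it were ZNF728 at 0.461, ZNF20 at 0.456 and ZNF665 at 0.437 CPM.

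A375 is an established human BRAF-mutant melanoma line, and all 4 groups were this one line, so nothing here extends to other melanoma genotypes. Cells received DMSO (the vehicle), tretinoin (all-trans retinoic acid, a ligand of the retinoic acid receptors), vemurafenib (an inhibitor of mutant BRAF kinase) or both drugs together (the combination), each at a listed final concentration of 5 µM, which the labels also give for DMSO. Treatments were applied in triplicate, giving 3 libraries per group. The labels do not say whether the 3 came from separate passages, so p-values measure the spread between these libraries, which may be partly technical.

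Most zinc finger proteins encoded on chromosome 19 carry a KRAB box followed by an array of C2H2 fingers. The fingers bind DNA, often within transposable elements, and the KRAB box recruits the scaffold protein TRIM28, which brings the histone methyltransferase SETDB1, heterochromatin protein 1 and the NuRD deacetylase complex to the bound site. The genes arose by repeated tandem duplication, lie side by side in clusters, and are usually expressed at low levels in many tissues.

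Library totals were 13510235 to 21534377 counts, and the scaling factors of the trimmed mean of M-values (TMM) method were 0.901 to 0.955 in the DMSO libraries, 0.958 to 1.01 with tretinoin, 1.05 to 1.07 with vemurafenib and 1.03 to 1.05 in the combination. The mitochondrial share of counts was 0.59% to 0.69% in DMSO libraries and 0.96% to 1.86% in the others. Its part in the results below was not tested. Among 8 melanocyte lineage markers 4 reached 1 CPM in some library, with MITF at 13.4 to 33.1 and S100B at 6.16 to 10.5 CPM over the 12 libraries, while SOX10 was listed at 0 in every library and TYR at no more than 0.0453 CPM. The 8 lineage markers summed to 27.9 to 32.8 CPM in DMSO, 26.2 to 30.9 with tretinoin, 43.9 to 46.9 with vemurafenib and 40.2 to 42.2 in the combination, with MITF at a mean of 17.6 CPM in DMSO and 32.4 CPM with vemurafenib. In the same order of groups the 4 epithelial markers summed to 12.6 to 16.8, 10.04 to 15.2, 29.4 to 32.3 and 26.7 to 36.0 CPM, nearly all from KRT14 and KRT5, with EPCAM and CDH1 below 0.6 CPM in every library. The 4 fibroblast markers summed to 4.25 to 6.23, 4.30 to 4.77, 12.9 to 14.9 and 9.57 to 10.05 CPM, and the 4 blood and 2 endothelial markers to at most 4.79 and 2.96 CPM in any library. The part of these shifts in the results was not tested.

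Members were expressed at low but measurable levels, with a median of 8.22 CPM, quartiles of 3.85 and 14.2 CPM and a maximum of 126.7 CPM. Every member had at least 3 counts in every library. Between genes, levels were compared per kilobase of merged exon length. On that scale the median member was at 1.43 TMM-scaled CPM per kb, and ZNF146, also called OZF and built almost wholly of fingers with no KRAB box, was highest at 30.8. ZNF787 followed at 19.4, ZNF581 at 19.3, ZNF428 at 12.004 and ZNF580 at 10.4 CPM per kb, and the lowest member, ZNF540, was at 0.118. None of these 5 highest members matched the KRAB pattern. Together the members took 0.211% to 0.232% of all counts in DMSO libraries, 0.235% to 0.261% with tretinoin, 0.253% to 0.261% with vemurafenib and 0.25% to 0.263% with the combination. After TMM scaling their summed level was 2341 to 2491 CPM in DMSO, 2451 to 2583 with tretinoin, 2406 to 2436 with vemurafenib and 2440 to 2525 with the combination, so that the DMSO range overlapped that of each drug group.

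In the GENCODE 29 annotation of GRCh38, a KRAB A box pattern was found in the translated coding sequence of 185 members and not found in 36, and members held a median of 12 C2H2 fingers, with 36 in ZNF208. A missing match does not show that a KRAB box is absent. Members lay in 16 runs in which neighbouring starts were no more than 1 Mb apart, and 213 of them lay in 9 runs of at least 5. Counting ignored strand and dropped reads that touched exons of more than 1 gene, which affects levels here because 121 members shared some exon bases with another annotated gene. Over 50% of exon bases were shared in ZNF490, ZNF468, ZNF320 and ZNF446, and 13 members held a stretch of at least 150 bases that was 98% or more identical to another gene's transcript, covering 54.6% of ZNF417 and 28.7% of ZNF587. Values of such members are uncertain, and neither ZNF417 nor ZNF587 is interpreted below.

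The RefSeq promoter table (GRCh38.p14, 250 bases before to 50 bases after a gene's start) held 196 of the 221 members. A search of both strands found the ETS-type word CCGGAAG in 88 of them, or 44.9%, against 10.3% of all 35116 promoters in the table and 31.0% of 258 promoters of ZNF genes on other chromosomes. The CCAAT word was in 53.1% of member promoters, 34.6% of all and 40.3% of the other ZNF promoters. In the same order, the retinoid receptor word AGGTCA was in 13.3%, 13.8% and 7.8%. The AP-1 word (TGACTCA) was in 2.0%, 4.9% and 3.1%, and the CRE word (TGACGTCA) in 3.6%, 1.8% and 3.5%. The E-box word (CACGTG) was in 4.1%, 7.3% and 5.8%. The promoters compared were not limited by level, as the members were. No word in this search contains another. The median GC content was 60.2% in member promoters and 58.7% in all, and whether base composition or shared ancestry of the promoters sets these shares was not tested. A word match is a description of the sequence and not a bound site.

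Promoters of 5 members are printed because their genes included large rises and falls below. They were picked after the values were seen. ZNF208, ZNF429 and ZNF492 lie in the same cluster, and with vemurafenib ZNF208 and ZNF429 rose while ZNF492 fell. ZNF536 showed the steepest rise and ZNF296 the steepest fall with vemurafenib. Capitals mark any of the 6 words on either strand. ZNF208 is at chr19:22010894-22011193 on the minus strand, ZNF429 at chr19:21505352-21505651 on the plus strand, ZNF492 at chr19:22634074-22634373 on the plus strand, ZNF536 at chr19:30225342-30225641 on the plus strand and ZNF296 at chr19:45076429-45076728 on the minus strand.
ZNF208: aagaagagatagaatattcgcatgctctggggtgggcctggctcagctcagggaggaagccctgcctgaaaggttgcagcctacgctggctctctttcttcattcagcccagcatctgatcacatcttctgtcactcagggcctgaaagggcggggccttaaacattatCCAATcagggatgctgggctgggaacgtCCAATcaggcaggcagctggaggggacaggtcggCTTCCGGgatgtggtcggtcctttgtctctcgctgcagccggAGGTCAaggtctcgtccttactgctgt
ZNF429: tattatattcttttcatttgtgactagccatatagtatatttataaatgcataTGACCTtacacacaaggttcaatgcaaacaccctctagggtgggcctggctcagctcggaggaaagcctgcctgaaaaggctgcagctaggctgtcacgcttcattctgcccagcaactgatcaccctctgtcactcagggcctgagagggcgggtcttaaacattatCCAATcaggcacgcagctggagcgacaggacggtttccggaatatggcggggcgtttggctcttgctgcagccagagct
ZNF492: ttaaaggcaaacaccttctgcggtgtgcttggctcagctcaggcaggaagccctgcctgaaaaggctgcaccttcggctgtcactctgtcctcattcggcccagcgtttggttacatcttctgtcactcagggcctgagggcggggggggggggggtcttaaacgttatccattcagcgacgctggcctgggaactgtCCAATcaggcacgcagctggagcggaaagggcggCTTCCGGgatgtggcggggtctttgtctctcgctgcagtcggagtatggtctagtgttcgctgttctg
ZNF536: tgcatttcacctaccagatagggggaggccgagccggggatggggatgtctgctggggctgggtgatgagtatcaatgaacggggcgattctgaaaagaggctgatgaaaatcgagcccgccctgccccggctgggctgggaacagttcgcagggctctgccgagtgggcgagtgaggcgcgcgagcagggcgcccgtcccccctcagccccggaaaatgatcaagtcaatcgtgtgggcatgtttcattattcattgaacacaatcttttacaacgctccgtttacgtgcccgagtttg
ZNF296: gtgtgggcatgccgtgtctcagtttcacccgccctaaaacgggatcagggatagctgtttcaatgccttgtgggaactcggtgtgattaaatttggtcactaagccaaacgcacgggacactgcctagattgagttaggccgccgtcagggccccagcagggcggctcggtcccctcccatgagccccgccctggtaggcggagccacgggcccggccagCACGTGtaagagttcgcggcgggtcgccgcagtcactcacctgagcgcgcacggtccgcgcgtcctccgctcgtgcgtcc
In ZNF208 the capitals are 2 CCAAT words, 1 ETS-type word read on the opposite strand and 1 AGGTCA word. ZNF429 held 1 CCAAT word and 1 AGGTCA word on the opposite strand, ZNF492 held 1 CCAAT and 1 ETS-type word, ZNF296 held 1 E-box and ZNF536 held none of the 6.

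The first comparison asked how BRAF inhibition alone changed the members. With vemurafenib, 58 of 221 members rose and 31 fell at an adjusted p below 0.05 (edgeR quasi-likelihood test, Benjamini-Hochberg adjustment over 16740 genes), and 132 did not pass. The rises were 26.2% of members, against 26.4% of all tested genes called higher, so the share of rises was near the background. The falls were 14.0% of members against 26.3% of all tested genes. The median log2 fold change was 0.17 over members (quartiles -0.18 and 0.44) and 0.02 over all tested genes. Among 215 ZNF genes of other chromosomes with the same minimum level, 63 rose and 47 fell with a median of 0.11, and among 738 other protein-coding genes of chromosome 19, 170 rose and 208 fell with a median of -0.03. These counts describe the lists, and no test between lists was made. Scaling by total counts alone moved the median of all tested genes up by 0.19 on the log2 scale, and under it 110 members rose and 15 fell while 39.3% of all tested genes were called higher and 15.7% lower. A change of scaling moves all genes nearly alike, so the members' median stood 0.15 above that of all genes under both. This likeness was built in and is no support.

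**Figure D1:**
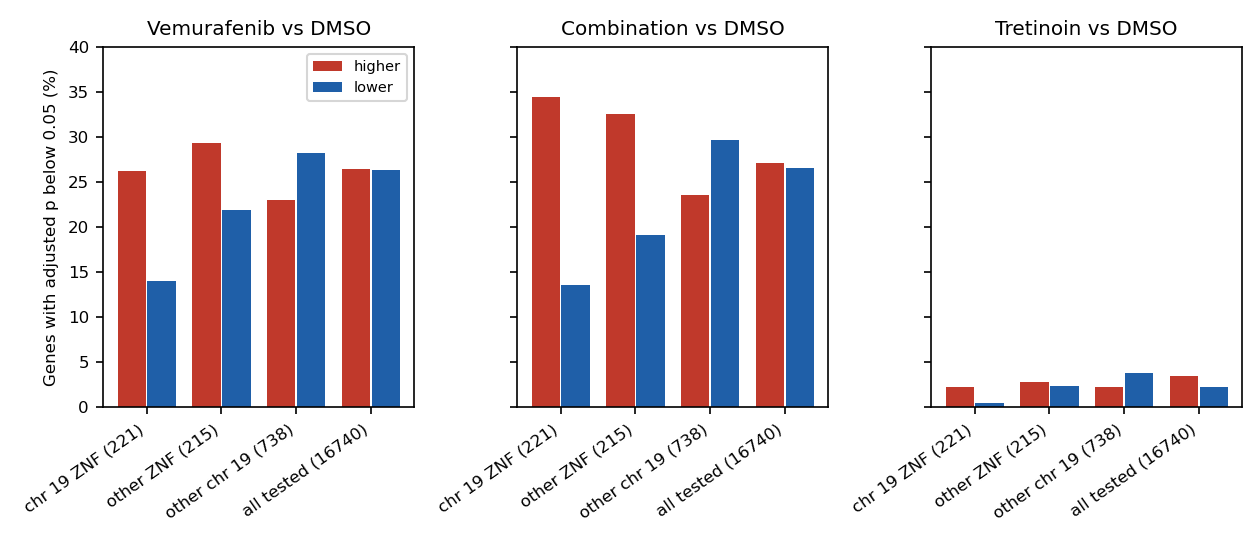
Percentage of genes in each list that were higher (red) or lower (blue) at an adjusted p below 0.05, for the 3 comparisons with DMSO, with the number of genes in parentheses. With vemurafenib 26.2% of the chromosome 19 ZNF members were higher and 14.0% lower, beside 26.4% and 26.3% of all tested genes.

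ZNF536, a negative regulator of neuronal differentiation driven by retinoic acid, had the steepest rise. It lies alone at chr19:30228290-30713538 on the plus strand, and its TMM-scaled level was 0.451, 0.540 and 0.264 CPM in the DMSO libraries and 2.75, 1.54 and 1.38 CPM with vemurafenib. The largest rises and falls were named only where the groups did not overlap, so that separation was a condition and is no support. The first vemurafenib library of ZNF536 stood above the other 2. The log2 fold change was 2.20 ± 0.37 (SE), or 4.59-fold (adjusted p = 8.3e-05). ZNF491 was at 0.322, 0.743 and 0.317 CPM in DMSO and 1.35, 1.30 and 1.68 CPM with vemurafenib, a log2 fold change of 1.66 ± 0.35 (adjusted p = 0.00066). ZNF114, a member only just above the level cut, went from 0.193, 0.203 and 0.369 to 0.571, 1.20 and 0.901 CPM. Its log2 fold change of 1.75 ± 0.55 (adjusted p = 0.013) rested on few counts, with 3 to 25 per library, and did not pass without DMSO library 1 (adjusted p = 0.05) or without vemurafenib library 2 (adjusted p = 0.073).

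The remaining large rises were between 1.23 and 1.38 on the log2 scale. ZNF471, whose promoter is methylated and silenced in several carcinomas, was at 0.580, 0.540 and 0.792 CPM in DMSO and 1.61, 2.17 and 1.26 CPM with vemurafenib, rising 2.61-fold. ZNF429 was at 1.68, 1.42 and 1.21 CPM in DMSO and 3.64, 3.42 and 3.25 CPM with vemurafenib. Its log2 fold change was 1.27 ± 0.21 (adjusted p = 7.2e-05). ZNF208, ZNF433 and ZNF606 rose by 1.28 ± 0.32, 1.24 ± 0.26 and 1.23 ± 0.21 on the log2 scale.

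ZNF296 fell most. This short gene lies at chr19:45071500-45076588 on the minus strand. It was at 5.87, 7.84 and 6.97 CPM in DMSO and at 1.66, 2.21 and 2.04 CPM with vemurafenib. The log2 fold change was -1.80 ± 0.18, a 3.48-fold lower level (adjusted p = 1.6e-07). ZNF556 went from 7.73, 7.97 and 7.44 to 4.26, 2.94 and 2.28 CPM, a log2 fold change of -1.27 ± 0.18 (adjusted p = 1.5e-05). The vemurafenib libraries of ZNF556 were more spread than its tight DMSO libraries.

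ZNF492 and ZNF98, neighbours of ZNF208 and ZNF429 in the same cluster, fell by 0.99 ± 0.12 and 0.94 ± 0.18 on the log2 scale. ZNF492 was at 12.1, 10.7 and 12.4 CPM in DMSO and 6.39, 5.77 and 5.65 CPM with vemurafenib (adjusted p = 3.4e-06). A near-identical stretch covers 11.4% of the ZNF492 transcript and 7.6% of that of ZNF98, so reads may be divided between them and their copies. ZNF530 and ZNF584 fell by 0.78 ± 0.12 and 0.61 ± 0.11. ZNF473, a component of the U7 machinery that processes histone pre-mRNA, was at 25.7, 25.7 and 25.7 CPM in DMSO and 17.1, 16.4 and 17.9 CPM with vemurafenib, which gave a log2 fold change of -0.59 ± 0.09 (adjusted p = 3.3e-05).

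Both members with the highest levels per kilobase fell. ZNF146 was at 145.8, 155.6 and 155.1 CPM in DMSO and 103.8, 109.7 and 103.9 CPM with vemurafenib, a 1.44-fold lower level (log2 fold change -0.52 ± 0.07, adjusted p = 3e-06). ZNF787 went from 87.9, 98.7 and 83.5 to 61.7, 58.1 and 57.8 CPM, a 1.52-fold lower level (adjusted p = 6.2e-06). ZNF580 went the other way, from 24.1, 18.98 and 22.2 to 35.5, 32.1 and 40.1 CPM (1.64-fold higher, adjusted p = 1.5e-05), and 15.1% of its exon bases are shared with another gene. ZNF581 and ZNF428 had log2 fold changes of 0.17 ± 0.08 and 0.11 ± 0.14 and did not pass.

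**Figure D2:**
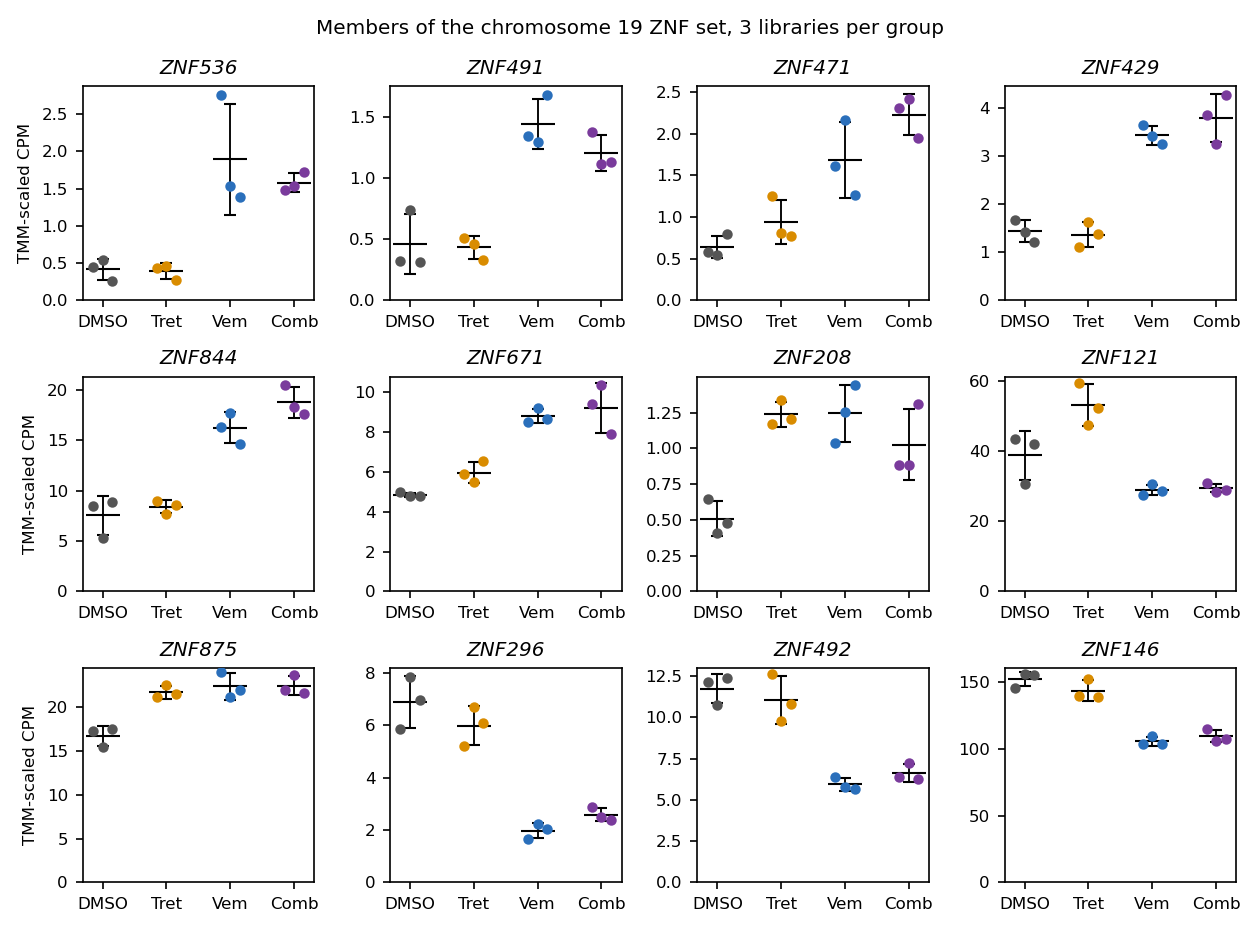
TMM-scaled CPM (linear axes from 0) of 12 members in the 3 libraries of each group (points), with the group mean and SD (bars); Tret, Vem and Comb are tretinoin, vemurafenib and the combination. ZNF536, ZNF491, ZNF429 and ZNF844 were higher, and ZNF296, ZNF492 and ZNF146 lower, in all vemurafenib and combination libraries than in any DMSO library. For members named as large rises or falls this separation was a condition and is no support.

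Calls were then counted by level. Of the 110 members below the median level, 36 rose and 10 fell with vemurafenib, with a median log2 fold change of 0.32 and a median SE of 0.19. Of the 111 at or above it, 22 rose and 21 fell, with a median of 0.07 and a median SE of 0.11. Of all tested genes, at any level, 26.4% were called higher and 26.3% lower. The rule that chose the members used these levels, so the split is a description and nothing is read from it about the members. The 185 members with a KRAB A box pattern had 46 rises and 22 falls with a median of 0.17, and the 36 without had 12 rises and 9 falls with a median of 0.15. Splitting members by the ETS-type word gave 22 rises and 10 falls among 88 promoters with it and 30 rises and 18 falls among 108 without, with medians of 0.16 and 0.17. Members with more than 12 fingers had 26 rises and 14 falls of 110, and the rest 32 rises and 17 falls of 111.

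**Figure D3:**
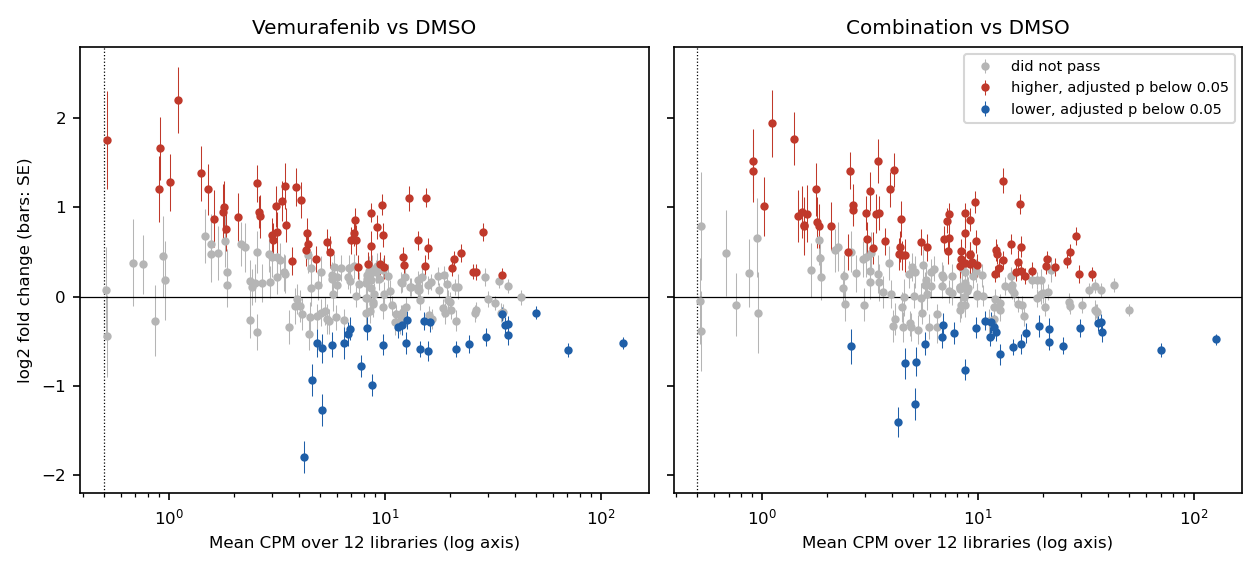
Log2 fold change with its SE (bars) for each of the 221 members against its mean CPM over 12 libraries (log axis), for vemurafenib and for the combination against DMSO; the dotted line is the cut of 0.5 CPM, and colour gives the call. With vemurafenib 36 of 110 members below the median level of 8.22 CPM rose, and 22 of 111 at or above it. Of all tested genes, at any level, 26.4% were called higher.

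Along the chromosome, 7 of the 16 runs held both a rise and a fall with vemurafenib, and 6 runs were single genes. In the run from ZNF653 to ZNF791 (20 members, 11.5 to 12.6 Mb), 9 members rose with vemurafenib and none fell, with a median log2 fold change of 0.51. That is 45.0% and 0.0% of the run, beside 26.4% and 26.3% of all tested genes called higher and lower. The run from ZNF302 to ZNF792 (5 members) had 3 rises and no fall. The run from ZNF653 was singled out for description after its values were seen. Besides ZNF491 and ZNF433 the risers included ZNF627, at 11.3, 7.84 and 9.97 CPM in DMSO and 21.8, 20.9 and 20.2 CPM with vemurafenib (log2 fold change 1.11 ± 0.11, adjusted p = 2.3e-07). ZNF844 rose by 1.10 ± 0.14 and ZNF44 by 0.94 ± 0.11 on the log2 scale, while their neighbours ZNF136 (-0.19 ± 0.10) and ZNF443 (-0.22 ± 0.14) did not pass. Rises in this run were thus interleaved with members that were not called. In the longest run, ZNF628 to ZNF446 with 54 members, 15 rose and 7 fell, and in the run from ZNF175 to ZNF331 with 34 members, 6 rose and 5 fell. The run from ZNF101 to ZNF254, which holds the printed ZNF208, ZNF429 and ZNF492 promoters, had 9 rises and 4 falls among 33. Rises made up 27.8%, 17.6% and 27.3% of these runs in turn, near or below the share over all tested genes.

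**Figure D4:**
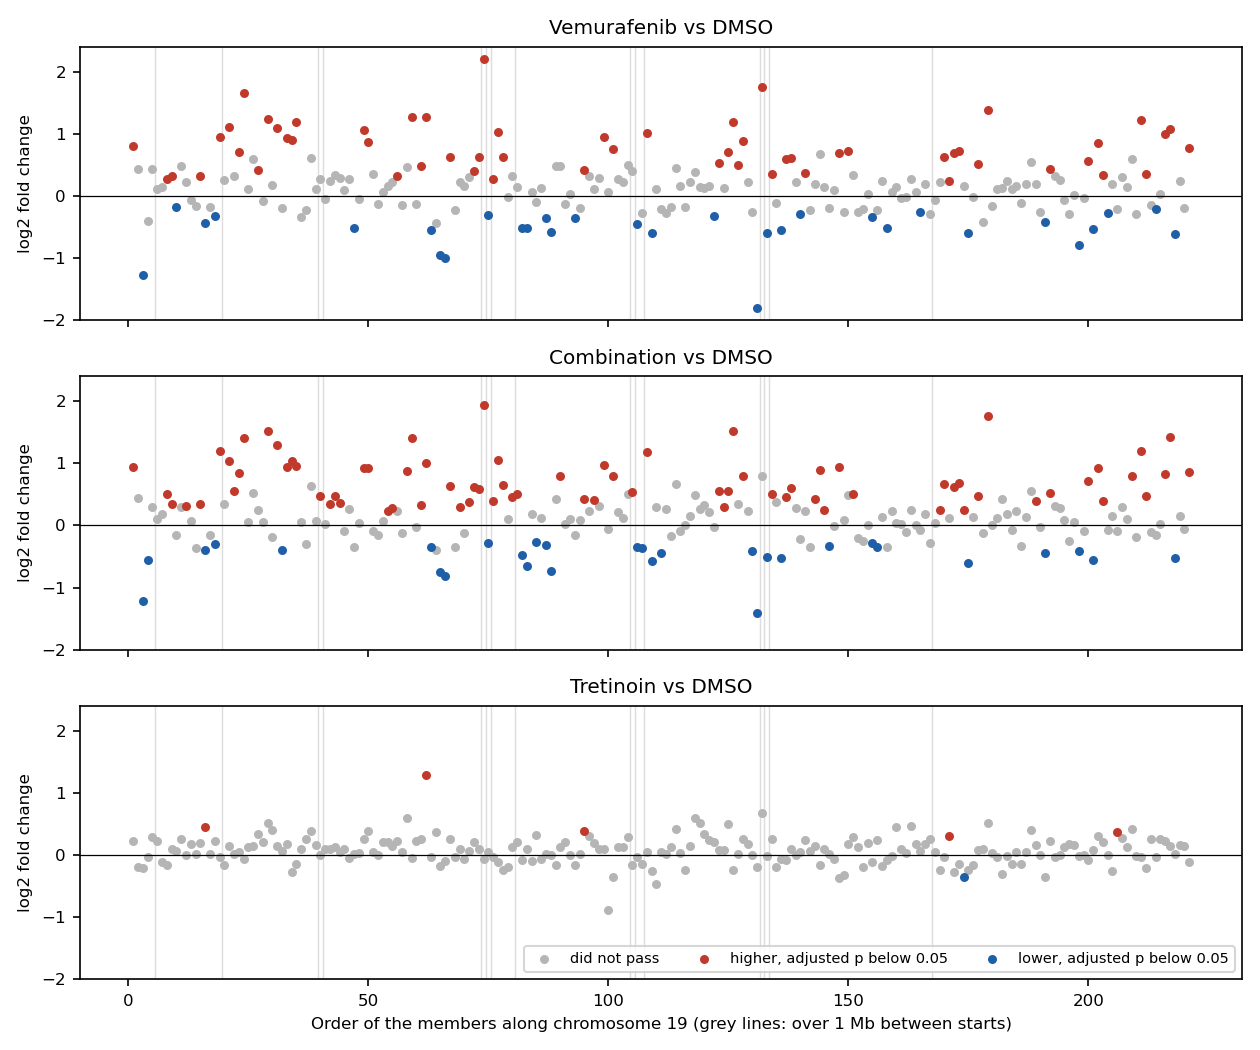
Log2 fold change of the 221 members in their order along chromosome 19, for the 3 comparisons with DMSO; grey lines separate runs more than 1 Mb apart and colour gives the call. With vemurafenib 9 of the 20 members from ZNF653 to ZNF791 were higher and none lower. With tretinoin 5 members were higher and 1 lower over the whole chromosome. Of all tested genes 26.4% were higher and 26.3% lower with vemurafenib, and 3.48% and 2.20% with tretinoin.

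The second comparison set the combination against DMSO. Here 76 members rose and 30 fell, that is 34.4% and 13.6% of members against 27.1% of all tested genes called higher and 26.5% called lower. The median log2 fold change was 0.22 over members and 0.03 over all genes, and 70 rises and 41 falls were counted among the 215 ZNF genes of other chromosomes. Under scaling by total counts alone, 111 members rose and 14 fell, with 37.3% of all tested genes called higher and 17.4% lower. This comparison used the same DMSO libraries as the first, so likeness between the 2 is partly built in. The members' median fell to 0.166 without DMSO library 2 and to 0.169 without combination library 1.

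ZNF536 was at 1.49, 1.53 and 1.72 CPM in the combination, with a log2 fold change of 1.94 ± 0.38 (adjusted p = 0.00031). ZNF471 was at 2.31, 2.42 and 1.95 CPM, 3.41-fold above DMSO (log2 fold change 1.77 ± 0.30, adjusted p = 7.4e-05). ZNF844, which had more counts than either, was at 8.44, 5.34 and 8.87 CPM in DMSO and 20.5, 18.3 and 17.6 CPM in the combination. Its 2.46-fold rise had an adjusted p of 6.4e-07. ZNF433, ZNF233, ZNF837, ZNF491 and ZNF429 rose by 1.52, 1.52, 1.42, 1.41 and 1.41 on the log2 scale, with SE values from 0.19 to 0.36.

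Among the falls, ZNF296 was at 2.86, 2.51 and 2.40 CPM in the combination, a log2 fold change of -1.41 ± 0.17 (adjusted p = 1.5e-06), and ZNF556 at 3.85, 3.21 and 2.99 CPM, a log2 fold change of -1.21 ± 0.18. Being apart from every DMSO library was a condition for naming both genes. ZNF492, ZNF98, ZNF850, ZNF566, ZNF787 and ZNF576 fell by between 0.57 and 0.82 on the log2 scale. ZNF114 had a log2 fold change of 0.79 ± 0.61 (adjusted p = 0.29), with combination libraries at 0.770, 0.511 and 0.136 CPM that overlapped DMSO.

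Tretinoin alone changed few members. At an adjusted p below 0.05, 5 rose and 1 fell, or 2.26% and 0.452% of members against 3.48% of all tested genes called higher and 2.20% called lower, and the median log2 fold change was 0.06 over members and 0.01 over all genes. ZNF208 had the largest rise, from 0.645, 0.405 and 0.475 CPM in DMSO to 1.17, 1.34 and 1.21 CPM with tretinoin. Separation from DMSO was a condition for naming this gene and is no support. The log2 fold change was 1.28 ± 0.33 (adjusted p = 0.03). ZNF208 is a protein of 36 fingers, and the levels rest on 6 to 29 counts per library.

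ZNF121 was at 43.6, 30.8 and 42.1 CPM in DMSO, 59.6, 47.6 and 52.4 CPM with tretinoin and 27.5, 30.6 and 28.7 CPM with vemurafenib. It therefore rose with tretinoin (log2 fold change 0.45 ± 0.11, adjusted p = 0.022) and fell with vemurafenib (-0.43 ± 0.11, adjusted p = 0.0041). In the combination it stood at 30.9, 28.5 and 29.1 CPM, a log2 fold change of -0.40 ± 0.11 against DMSO, whose second library at 30.8 CPM overlapped this range. ZNF875 (listed as HKR1 in GENCODE 29) was at 17.2, 15.4 and 17.5 CPM in DMSO, 21.1, 22.5 and 21.4 CPM with tretinoin and 22.4 ± 1.1 CPM (SD, n = 3) in the combination. ZNF814 and ZNF865 rose with tretinoin by 0.37 ± 0.10 and 0.31 ± 0.08 on the log2 scale. ZNF581 fell from 32.7 ± 1.6 to 25.6 ± 1.6 CPM (SD, n = 3), with a log2 fold change of -0.35 ± 0.08 (adjusted p = 0.021).

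These tretinoin calls were fragile. Without DMSO library 2, none of the 6 passed, and none passed when only the DMSO and tretinoin libraries were fitted. Without tretinoin library 2 there were 2 rises and no fall, and without tretinoin library 1 there were 3 rises. The 185 members with a KRAB pattern had a median log2 fold change of 0.09 with tretinoin, and the 36 without had a median of -0.09. The pattern was widened after values had been seen, and its first version gave 0.09 and -0.07. With tretinoin the median was 0.07 over the 215 ZNF genes of other chromosomes. Over the 738 other protein-coding genes of chromosome 19 it was -0.09. No test between these lists was made.

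The combination and vemurafenib alone were compared to ask what tretinoin added in the presence of the BRAF inhibitor. No member was called by the edgeR test in either direction, where 2.27% of all tested genes were higher and 2.20% lower, and DESeq2 also called none. At an unadjusted p below 0.05, 5 members were higher and 2 lower. The median log2 fold change of members was 0.03, with quartiles of -0.06 and 0.14. ZNF530 was at 5.77, 5.10 and 5.59 CPM with vemurafenib and 6.27, 7.48 and 7.38 CPM in the combination. Its log2 fold change was 0.37 ± 0.12 (adjusted p = 0.12), and that of ZNF296 was 0.38 ± 0.19 (adjusted p = 0.4). Neither was picked by the naming rule in this comparison. Both were named as falls with vemurafenib, so a higher value against those same libraries is partly built in. Over all members the log2 fold changes ran from -0.96 to 0.53, with a median SE of 0.13.

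Against tretinoin alone, the combination had 56 members higher and 40 lower, 25.3% and 18.1% against 24.1% and 25.0% of all tested genes, with a median log2 fold change of 0.07 over members. Total counts alone gave 74 higher and 24 lower with a median of 0.161, where 30.2% of all tested genes were called higher and 19.5% lower, and the median was 0.132 without tretinoin library 1. ZNF536 (2.01 ± 0.38), ZNF233 (1.76 ± 0.37), ZNF491 (1.47 ± 0.36), ZNF429 (1.45 ± 0.21) and ZNF528 (1.31 ± 0.19) rose most on the log2 scale. ZNF528 was at 2.27, 1.45 and 1.53 CPM with tretinoin and 4.46, 4.14 and 4.30 CPM in the combination. ZNF296, ZNF556, ZNF121, ZNF566 and ZNF492 fell by 1.22, 1.0, 0.85, 0.75 and 0.73. ZNF121 thus went from 53.2 ± 6.0 CPM with tretinoin to 29.5 ± 1.3 CPM in the combination (SD, n = 3), an adjusted p of 5.7e-06.

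The interaction term, which asks whether the effect of both drugs departs from the sum of their separate log2 effects, called no member by the edgeR test, against 0.382% of all tested genes called positive and 0.424% negative. At an unadjusted p below 0.05, 11 members were positive and 9 negative, and DESeq2 called 1 member negative. ZNF208 had the largest departure of those with the smallest p (-1.54 ± 0.43, adjusted p = 0.12). Its level was 0.508 CPM in DMSO, 1.24 with tretinoin, 1.24 with vemurafenib and 1.02 in the combination (means of 3), with overlapping libraries in the 3 drug groups. ZNF865 had -0.43 ± 0.11 (adjusted p = 0.087) and ZNF581 had 0.42 ± 0.12 (adjusted p = 0.11).

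Several members have roles known from other work. ZNF91 and ZNF93, which repress SVA and LINE-1 retrotransposons, had log2 fold changes with vemurafenib of 0.23 ± 0.10 (adjusted p = 0.064) and 0.10 ± 0.14 (adjusted p = 0.6), and ZNF91 rose in the combination, from 17.7, 13.5 and 15.9 CPM in DMSO to 19.5, 19.5 and 18.8 CPM (log2 fold change 0.29 ± 0.10, adjusted p = 0.02). ZNF274, which binds the 3′ ends of zinc finger genes and recruits SETDB1 there, was at 26.6 ± 2.8 CPM in DMSO and 24.0 ± 1.7 CPM with vemurafenib (SD, n = 3) and did not pass (adjusted p = 0.16). ZNF568, whose mouse counterpart silences a placental Igf2 transcript, had a log2 fold change of 0.03 ± 0.12 with vemurafenib. The imprinted gene ZNF331 had -0.29 ± 0.14 and ZNF224, a KRAB repressor, 0.13 ± 0.17, and neither passed. For ZNF224, 40.5% of exon bases are shared with another gene.

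ZNF671, silenced by promoter methylation in several tumour types, rose from 4.96, 4.80 and 4.80 CPM in DMSO to 8.52, 9.19 and 8.65 CPM with vemurafenib and 9.41, 10.4 and 7.88 CPM in the combination. Its log2 fold changes were 0.86 ± 0.13 (adjusted p = 3.2e-05) and 0.92 ± 0.13 (adjusted p = 1.2e-05). ZNF649, a KRAB repressor, fell by 0.54 ± 0.14 with vemurafenib (adjusted p = 0.0028), from 6.83 ± 0.82 to 4.73 ± 0.24 CPM (SD, n = 3). ZNF420, which binds p53, fell by 0.35 ± 0.14 (adjusted p = 0.04) with vemurafenib and had -0.15 ± 0.14 in the combination.

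Of 20 genes listed as KRAB zinc finger cofactors or heterochromatin partners, 4 rose and 8 fell with vemurafenib, with a median log2 fold change of -0.16. That is 20% and 40% of the list beside 26.4% and 26.3% of all tested genes. In the combination 2 rose and 9 fell, beside 27.1% and 26.5% of all tested genes, and none was called with tretinoin by edgeR or by DESeq2, with 4 at an unadjusted p below 0.05. TRIM28, the scaffold that KRAB boxes bind, fell by 0.19 ± 0.07 (adjusted p = 0.02) with vemurafenib, while SETDB1 had a log2 fold change of 0.14 ± 0.08 (adjusted p = 0.14). CHD3 and CHD4, the NuRD remodelling subunits, rose by 0.41 ± 0.07 and 0.47 ± 0.07, and HDAC1 and HDAC2, its deacetylases, fell by 0.25 ± 0.06 and 0.55 ± 0.07. CBX3, an HP1 protein, fell by 0.59 ± 0.09. The largest change was in UHRF1, which guides the maintenance methyltransferase DNMT1 to replicated DNA, at -1.30 ± 0.09 with vemurafenib (adjusted p = 2.7e-09), and DNMT1 itself had -0.40 ± 0.07. Whether any of these changes bears on the members was not tested.

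**Figure D5:**
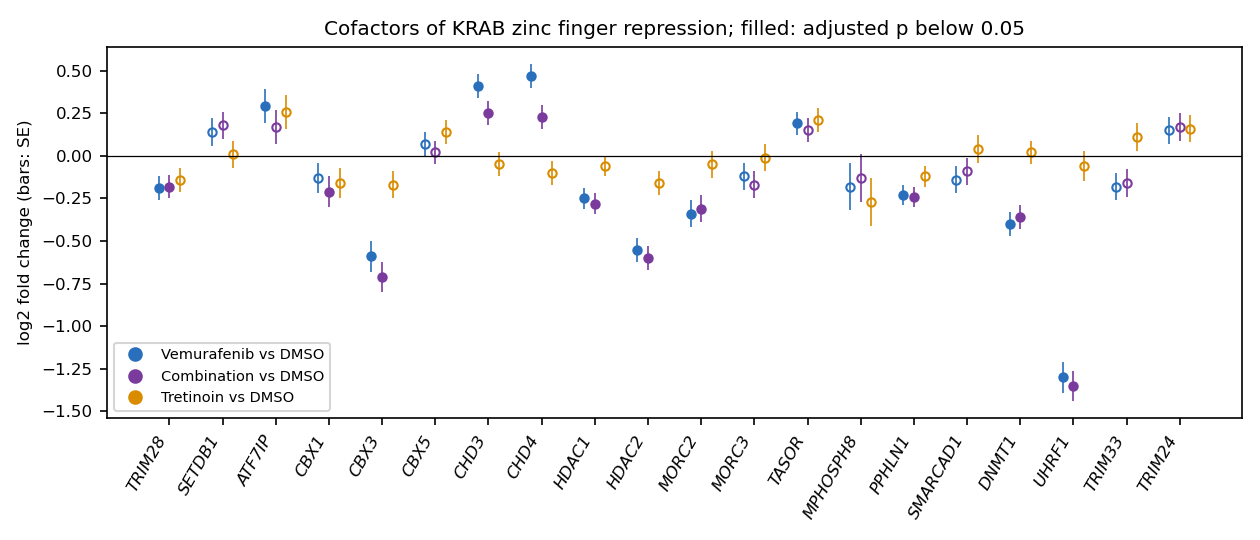
Log2 fold change with its SE (bars) of 20 KRAB zinc finger cofactors or heterochromatin partners against DMSO. Vemurafenib is blue, the combination purple and tretinoin orange, and filled points had an adjusted p below 0.05. With vemurafenib UHRF1 fell by 1.30 on the log2 scale and TRIM28 by 0.19, and no gene of the list was called with tretinoin by edgeR.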

How the data were processed

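RNA of A375 cells was sequenced in 12 libraries, 3 per treatment group, grouped by their titles. Per the study's methods, the authors aligned read pairs with STAR 2.5.3a to GRCh38.p10 with GENCODE 27 and tallied fragments per gene in Union mode, ignoring strand although the library kit marks it, and the deposited values are raw counts. Gene types, positions, exon lengths and protein patterns came from GENCODE 29 (58084 of 58347 identifiers matched), which is a later release than the authors used, with current symbols from a gene name table.

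edgeR 4.0.16 (R 4.3.3) was run on the counts of all 12 libraries: genes were filtered by filterByExpr, scaled by TMM and tested with the quasi-likelihood F-test, with Benjamini-Hochberg adjustment over 16740 genes and a threshold of 0.05. SE is the log2 fold change divided by the square root of F. On simulated counts for vemurafenib against DMSO with 197 changed genes among 16363, the edgeR test recovered 158 with 9 false calls. In the data 26.4% of all tested genes were called higher and 26.3% lower with vemurafenib. The simulation changed far fewer genes, so its figures need not carry over to the data. DESeq2 1.42.0, other scalings and filters, a replicate block and omission of each library were alternatives. The main fit did not pair samples by replicate number. Intervals reflect library spread and counting error only.

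Members and lists were chosen with earlier results of these data known. Named members were the 8 largest rises and 8 largest falls with vemurafenib and with the combination, and up to 5 each way in the other comparisons, among calls whose groups did not overlap, plus the 5 highest levels per kilobase, the 3 on each side of the level cut and 12 genes of known function, of which ZNF382 was not a member. Others are marked where named. The KRAB pattern was widened once after values had been seen, from 176 to 185 matching members, because known KRAB genes had been missed. No protein table was used, so GENCODE coding sequences were translated instead. Near-identical stretches were found with blastn 2.17.0.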

Additional observations from a re-analysis of the deposited data

How the results depend on the processing

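Of 375 recomputed counts and medians, 339 kept their size (counts within 1.5 times, medians within 0.048, the spread between replicates), but 80 of these are counts of 0 that stayed at 0 and say nothing about stability. No member named as a rise or fall reversed under any setting. These members were picked as the largest calls in the same libraries, so their persistence is not independent support. Calls of named members were lost in 33 single checks, all of ZNF114 with vemurafenib or of the 6 tretinoin calls. Total counts alone gave 110 rises, 15 falls and a median of 0.364 with vemurafenib, 14 falls and a median of 0.383 with the combination, a median of 0.134 and 0 falls with tretinoin, 24 falls and a median of 0.161 for the combination against tretinoin, and a median of -0.143 for the interaction. The tretinoin rises numbered 3 without the low-count filter and 0 when only the compared groups were fitted, and its falls 2 without the filter, 2 by DESeq2 and 0 when only the compared groups were fitted. For the interaction, the unfiltered fit called 1 member positive and DESeq2 1 negative. The cause of these shifts was not tested, beyond the change of scale that total counts bring to all genes.

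Members were also restricted to the 97 with no shared exon or near-identical sequence. This alternative was chosen after seeing the data and left fewer genes. Of these, 28 rose and 13 fell with vemurafenib (28.9% and 13.4%, beside 26.4% and 26.3% of all tested genes). The combination gave 37 and 14, with a median of 0.163 (38.1% and 14.4%, beside 27.1% and 26.5%). Tretinoin gave 3 and 0 (3.09% and 0.0%, beside 3.48% and 2.20%). The combination against tretinoin gave 26 and 21 (26.8% and 21.6%, beside 24.1% and 25.0%).

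Leaving out 1 library at a time gave 46 to 67 rises, 21 to 34 falls and medians of 0.126 to 0.188 with vemurafenib. The combination against DMSO gave 57 to 81 rises, 22 to 33 falls and medians of 0.166 to 0.218. Tretinoin gave 0 to 5 rises, 0 to 2 falls and medians of 0.035 to 0.095, with 0 falls without DMSO library 2 or tretinoin library 2 and 2 without combination library 1. The combination against tretinoin gave 46 to 61 rises, 28 to 41 falls and medians of 0.041 to 0.132, the last without tretinoin library 1. No rise or fall was called against vemurafenib (medians 0.023 to 0.056) or for the interaction (medians -0.067 to 0.007). The share of all tested genes called in each of these fits is not given, so the ranges describe the members only.

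Replicate numbers are shared between groups. Same-numbered libraries had a mean correlation of deviations of -0.044, over 0.1 in 2 of 18 pairs. With so few libraries this cannot show whether same-numbered libraries were handled together. With the replicate block, tretinoin rises went from 5 to 3, and no other count moved by over 1.5 times.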
